A study of Citrullus lanatus with 26 samples.

Results

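The comparison described here is the change in small RNA of the fruit flesh of watermelon germplasm PI296341FR between 10 and 30 DAP, the unit of fruit age in the labels. It rests on 4 of the 26 libraries of the study, 2 at each age, chosen by the genotype, age and title that the labels give. The study sequenced small RNA of watermelon flesh in a stage set of 97103 at several ages and in a genotype set of 8 libraries. In the genotype set, Citrullus lanatus germplasm PI296341FR and Citrullus lanatus subsp. vulgaris cv. 97103 were each sampled at 10 DAP and at 30 DAP, with 2 libraries for each genotype and age. The labels give flesh as the tissue of every group and name no treatment, allele or transgene. The labels do not say whether the replicates came from separate fruits or plants, so the spread between libraries behind each p-value may be technical. In the main fit of the genotype set that spread was pooled over vectors and over all 8 libraries. It is therefore not that of the 4 PI296341FR libraries alone.

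Plant miRNAs are short RNAs that guide an Argonaute protein to messenger RNAs of matching sequence, which are then cut or translated less. Many conserved families act on transcription factors: miR164 on NAC factors, a class that includes regulators of organ boundaries and of fruit ripening, miR156 on SPL factors, miR172 on AP2-like factors, miR166 on HD-ZIP III factors and miR160 and miR167 on auxin response factors. Others act on enzymes or on the small RNA pathway itself, such as miR397 on laccases, miR408 on plantacyanins and laccases, miR162 on DCL1 and miR168 on AGO1.

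The genotype set lists 1263 miRNA names, mostly the same families under the prefixes of many plant species (cme for melon, osa for rice, gma for soybean and so on). Names of a family with identical counts in all 8 libraries were kept once, which left 428 distinct count vectors in 35 families, 5 of them single predicted names that start with novel_mir. Each vector is called by its melon name where it has one. Many vectors differ from each other by a few counts only. Vectors of a family within 0.1 of a lead name in every library, in log2 of the count plus 1, form 137 profiles. Vectors of a family are therefore near copies and not replicates. No sequence came with the names used here, so none is shown.

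Summed over distinct vectors, the totals were 638600 and 2257245 counts at 10 DAP and 453991 and 3814718 counts at 30 DAP. The shallowest library was thus replicate 1 at 30 DAP, and the deepest was its partner. Levels are given as CPM, that is counts scaled to a common total of these vectors with trimmed-mean (TMM) factors, with replicate 1 before replicate 2. Since near copies stay in the totals, a CPM is not a share of reads. Replicates had a Spearman correlation over vectors of 0.952 at 10 DAP and 0.889 at 30 DAP, and a median absolute gap between them of 0.53 and 1.37 on the log2 scale. The libraries at 30 DAP were thus further apart than those at 10 DAP.

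In PI296341FR flesh most vectors of miR164, the one known family with a call, were higher at 30 than at 10 DAP. Of the 41 count vectors of miR164, 32 were called higher, by 3.57 to 4.04 on the log2 scale, and none lower. These 32 are near copies in 3 profiles, and the calls rest on keeping the copies. With 1 name per profile no name was called, at a lowest edgeR adjusted p of 0.154. In the quasi-likelihood F test of edgeR with Benjamini-Hochberg adjustment, 7.73% of the 427 vectors tested were called higher at an adjusted p under 0.05, and 0% lower. The call that was not miR164 was the predicted name novel_mir_105. At an unadjusted p under 0.05 there were 38 higher vectors, 35 of them miR164, and 1 lower. DESeq2 called 33 higher and 0 lower. The median change over all vectors tested was -0.17 on the log2 scale, and that of the miR164 vectors was 3.58, or 3.75 above it.

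The vector cme-miR164d had 394 and 250 CPM at 10 DAP and 6616 and 1774 CPM at 30 DAP, from 296, 633, 2844 and 7851 counts. Both libraries at 30 DAP lay above both at 10 DAP, and replicate 1 at 30 DAP was the highest. The mean went from 322 ± 102 CPM to 4195 ± 3423 CPM (SD, n = 2 libraries), a log2 fold change of 3.70 with SE 1.07 and a 95% interval of 1.61 to 5.79. The adjusted p of edgeR was 0.00984.

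The profile of cme-miR164c, which holds 23 vectors and 44 names, had the same form. Its lead vector had 325 and 203 CPM at 10 DAP and 5106 and 1158 CPM at 30 DAP, again without overlap, with a log2 fold change of 3.57, SE 1.05 and an edgeR adjusted p of 0.00984. The lower-level aly-miR164c-5p had 81.2 and 47.4 CPM at 10 DAP and 1500 and 612 CPM at 30 DAP. It changed by 4.04 with SE 1.27 and an edgeR adjusted p of 0.0203, the largest change of the family. The 32 called vectors fall into these 3 profiles: 23 vectors in that of cme-miR164c, 8 in that of cme-miR164d and 1 in that of aly-miR164c-5p.

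**Figure D1:**
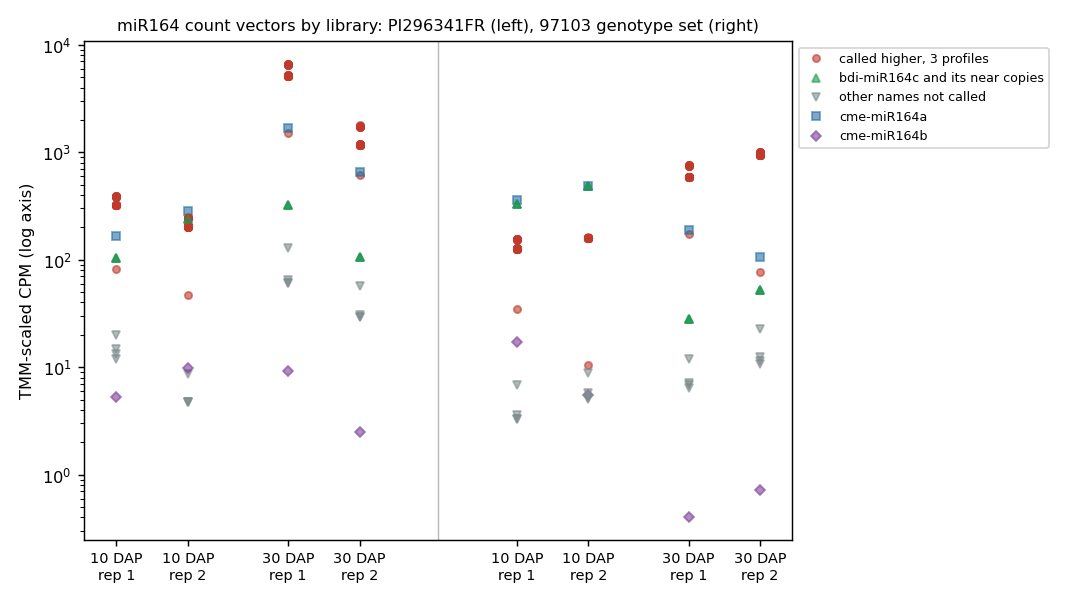
TMM-scaled CPM (log axis) of every tested miR164 count vector in the 4 PI296341FR libraries (left) and the 4 libraries of 97103 in the genotype set (right); each point is 1 vector in 1 library. In PI296341FR the vectors called at 30 against 10 DAP go up in both libraries at 30 DAP, for example cme-miR164d from 394 and 250 to 6616 and 1774 CPM, while those of bdi-miR164c overlap between the ages.

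The other 9 miR164 vectors were not called, and they were not alike. The vector cme-miR164a had 165 and 282 CPM at 10 DAP and 1694 and 661 CPM at 30 DAP, without overlap, with a log2 fold change of 2.39, SE 1.10 and an edgeR adjusted p of 0.369. Another 4 low vectors, led by bna-miR164b with 20.0 and 8.69 CPM at 10 DAP and 128 and 57.2 CPM at 30 DAP, had log2 fold changes of 2.34 to 2.71. The ages overlapped for bdi-miR164c, with 104 and 240 CPM at 10 DAP and 321 and 105 CPM at 30 DAP, and its log2 fold change was 0.30 with SE 1.17. They also overlapped for cme-miR164b, at 5.33 and 9.88 CPM against 9.30 and 2.49 CPM, a log2 fold change of -0.66. Over the family, 37 of 41 vectors had both libraries at 30 DAP above both at 10 DAP. Of all vectors tested, 78 or 18.3% lay in that direction and 19.9% in the other. Those 78 include the 37 of miR164, which are near copies.

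A ratio of counts within a library does not depend on how libraries are scaled. The counts of cme-miR164d were 3.80 and 1.04 times those of bdi-miR164c at 10 DAP, and 20.6 and 16.9 times at 30 DAP. In the libraries of 97103 in the genotype set the same ratio was 0.474 and 0.331 at 10 DAP and 27.4 and 19.4 at 30 DAP. The ratio was higher at 30 DAP in each library of both genotypes. This pair was chosen after its values were seen, so the ratio is a description.

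The miR164 calls depended on how copies were handled. With 1 name per profile, 0 of 135 names were called by edgeR, with an unadjusted p of 0.00167 for aly-miR164c-5p, 0.00328 for cme-miR164d and 0.00456 for cme-miR164c and an adjusted p of 0.154 for each. With counts summed over a family, 0 of 35 sums were called, and that of miR164 had the smallest p, with a log2 fold change of 3.59, SE 1.31 and an edgeR adjusted p of 0.239. With every listed name kept, all 144 calls were lower, 135 of them miR395 names, the median over names was -1.18, and cme-miR164d had a log2 fold change of 2.48 and an adjusted p of 0.168. The calls also ended when replicate 1 at 10 DAP was left out (cme-miR164d 4.07, adjusted p 0.268), when replicate 2 at 10 DAP was (3.41, adjusted p 0.61) and when replicate 1 at 30 DAP was (3.02, adjusted p 0.185). Without replicate 2 at 30 DAP there were 32 calls, 31 of them miR164 and 1 novel_mir_105.

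The predicted name novel_mir_105 was called from 1 library. It had 30.6 and 4.74 CPM at 10 DAP and 612 and 3.39 CPM at 30 DAP, from 23, 12, 263 and 15 counts. The ages overlapped, since replicate 2 at 30 DAP was the lowest of the 4 libraries. The log2 fold change was 4.16 with SE 1.38 and an edgeR adjusted p of 0.0349, and it was -1.76 without replicate 1 at 30 DAP. It was not called by DESeq2 (adjusted p 0.258) or with a stricter count minimum (adjusted p 0.0686). The other 4 predicted names were not called, and each was higher in replicate 1 than in replicate 2 at both ages. One of them, novel_mir_57, had 3615 and 409 CPM at 10 DAP and 2156 and 146 CPM at 30 DAP.

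Among the known families, those whose textbook targets are copper proteins had the next highest medians, without a call. All 9 vectors of miR397 and miR408 had log2 fold changes above 0, with a median of 2.15, and 0 of 9 were called. For cme-miR397, from a family that acts on laccases, the levels were 63.9 and 68.0 CPM at 10 DAP and 449 and 175 CPM at 30 DAP. All 3 miR397 vectors, which form 1 profile, had both libraries at 30 DAP above both at 10 DAP, against 18.3% of all vectors tested. The log2 fold change of cme-miR397 was 2.24 with SE 1.25, a 95% interval of -0.22 to 4.69 and an edgeR adjusted p of 0.691. For cme-miR408 the levels were 105 and 120 CPM at 10 DAP and 947 and 54.9 CPM at 30 DAP, so that its libraries at 30 DAP lay on either side of those at 10 DAP. Its log2 fold change was 2.15 with SE 1.23 and an edgeR adjusted p of 0.736, and it was -0.49 without replicate 1 at 30 DAP.

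The families that act on the miRNA pathway, miR162 and miR168, had 0 of 20 vectors called and a median log2 fold change of 0.17. For hpe-miR162a the levels were 42.6 and 72.7 CPM at 10 DAP and 261 and 148 CPM at 30 DAP, a log2 fold change of 1.81 with SE 1.24 and an edgeR adjusted p of 0.748. All 5 miR162 vectors were without overlap in this direction, against 18.3% of all vectors tested, and they form 1 profile. The family of miR168 gave some of the highest levels in this flesh: ccl-miR168 stood at 36179 and 45279 CPM at 10 DAP and at 36317 and 55318 CPM at 30 DAP. Its log2 fold change was 0.17 with SE 1.48, and the ages overlapped.

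**Figure D2:**
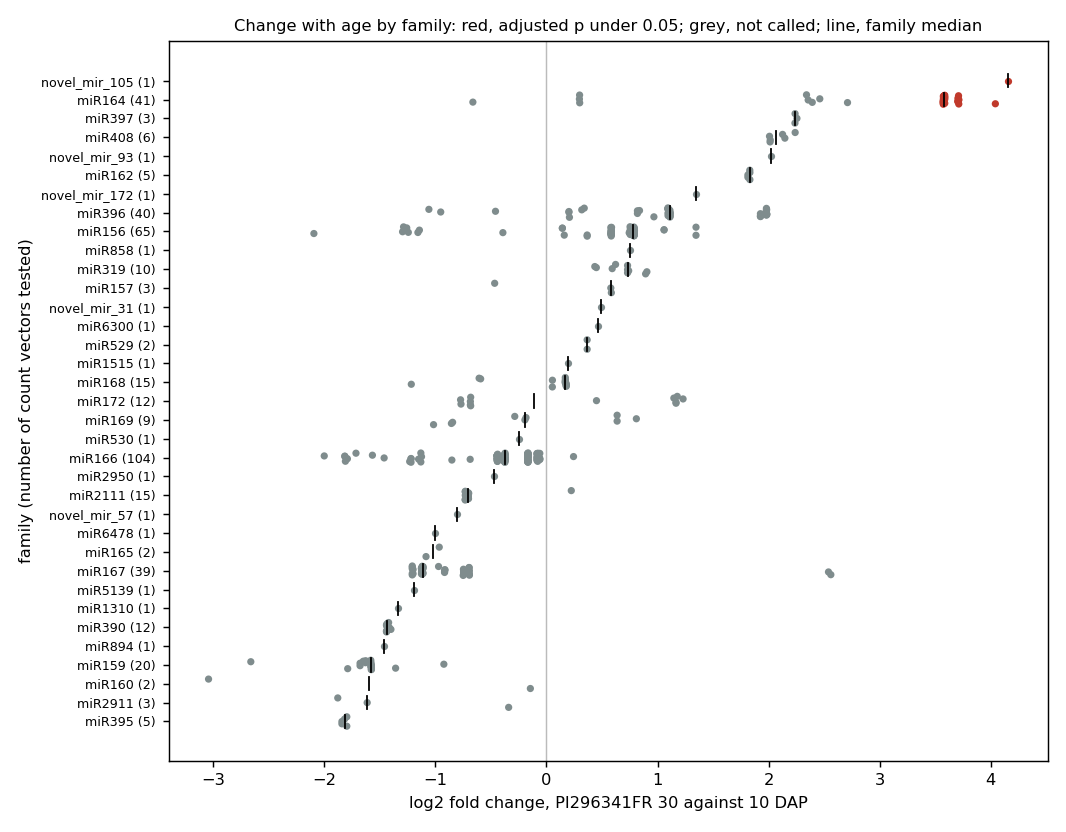
Log2 fold change from 10 to 30 DAP in PI296341FR (x axis) for each count vector tested, by family (y axis, number of vectors in brackets); red points passed an adjusted p under 0.05, grey points did not, and the short line is the family median. The miR164 vectors lie apart at a median of 3.58, and novel_mir_105 is the other call.

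The auxin list holds miR167, which acts on auxin response factors, miR390, which starts the tasiRNAs against other auxin response factors, and miR160. The miR160 vectors tested are both named for the 3p arm, which is not the arm known to act on auxin response factors. The list had 0 of 53 vectors called and a median log2 fold change of -1.12. All 12 miR390 vectors had both libraries at 30 DAP below both at 10 DAP, as did 37 of 39 miR167 vectors, against 19.9% of all vectors tested, a share that these near copies themselves make up in large part. For cme-miR390b the levels were 754 and 531 CPM at 10 DAP and 295 and 192 CPM at 30 DAP, a log2 fold change of -1.40 with SE 1.18 and an edgeR adjusted p of 0.823. For ccl-miR167a the levels were 876 and 806 CPM at 10 DAP and 609 and 173 CPM at 30 DAP, with a log2 fold change of -1.11 and SE 1.05. The smallest p of any lower vector was that of gma-miR160a-3p, also of the 3p arm. It had 45.3 and 136 CPM at 10 DAP and 4.65 and 15.8 CPM at 30 DAP, without overlap, a log2 fold change of -3.04 with SE 1.32 and an edgeR adjusted p of 0.269.

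The phase change list had 0 of 80 vectors called and a median of 0.76. For ghr-miR156d, of the family that acts on SPL factors, the levels were 1167 and 752 CPM at 10 DAP and 1114 and 2116 CPM at 30 DAP, which overlapped. Of the 65 miR156 vectors, 57 had a log2 fold change above 0, against 194 of all 427 vectors tested, and 2 were without overlap in that direction. The miR156 median was 1.70 without replicate 1 at 30 DAP and -0.21 without replicate 2 at 30 DAP. For cme-miR172a, of the family that acts on AP2-like factors, the levels were 61.3 and 91.7 CPM at 10 DAP and 39.5 and 49.9 CPM at 30 DAP, a log2 fold change of -0.77 with SE 1.19. The 12 miR172 vectors were split, with 5 without overlap in the higher direction and 6 in the lower. Of all vectors tested, 18.3% were without overlap in the higher direction and 19.9% in the lower.

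The list for organ growth and meristems had 32 of 197 vectors called, all of them miR164, and a median of -0.08. Its most numerous family was miR166, with 104 vectors at a median of -0.37, and mdm-miR166c overlapped at 5269 and 5672 CPM at 10 DAP against 7023 and 2717 CPM at 30 DAP. All 10 vectors of miR319, which acts on TCP factors, were without overlap in the higher direction, against 18.3% of all vectors tested. Their levels were low: cme-miR319a had 7.99 and 13.04 CPM at 10 DAP and 16.3 and 19.2 CPM at 30 DAP. These came from 6, 33, 7 and 85 counts, with a log2 fold change of 0.74 and SE 1.17. The median of the 40 miR396 vectors, from a family that acts on growth-regulating factors, was 1.11, and 16 were without overlap in the higher direction. That median was 2.21 without replicate 1 at 30 DAP and -0.14 without replicate 2 at 30 DAP. The miR396 vectors include names of the 3p arm, such as gma-miR396a-3p with a log2 fold change of 0.20. The list of ripening regulators (miR156, miR157, miR164 and miR172) had 32 of 121 vectors called, again all miR164, and a median of 0.79.

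Among MYB regulators, 0 of 21 vectors were called and the median was -1.58. The miR159 family acts on GAMYB-like factors. For ptc-miR159a the levels were 268 and 826 CPM at 10 DAP and 258 and 92.7 CPM at 30 DAP, a log2 fold change of -1.65 with SE 1.17. Both libraries at 30 DAP were below both at 10 DAP, in the case of replicate 1 by a small margin. The list of NF-YA regulators (miR169) had 0 of 9 called and a median of -0.19. The lists for NBS-LRR defence genes and for F-box genes had no member among the vectors tested.

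**Figure D3:**
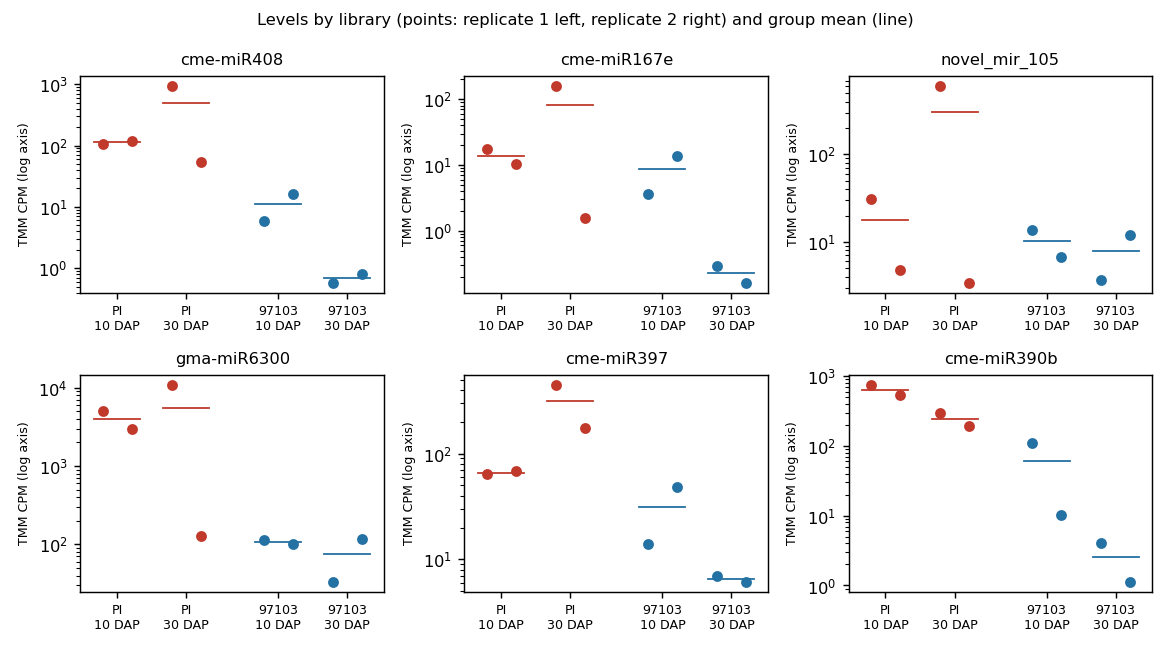
TMM-scaled CPM (log axis) of 6 names in each library of the genotype set; points are libraries, with replicate 1 on the left, and the line is the mean of the 2 libraries of a group. In PI296341FR, cme-miR397 is higher and cme-miR390b lower in both libraries at 30 DAP, whereas cme-miR408, cme-miR167e and novel_mir_105 are high in replicate 1 at 30 DAP and lowest in replicate 2.

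Families known from phloem sap and from RNA breakdown were followed as signs of other tissue and of RNA quality. Of the phloem-mobile families, miR395 and miR2111 had tested vectors and miR398, miR399 and miR827 had none. Their 20 vectors summed to 7434 and 4099 CPM at 10 DAP and to 4520 and 2496 CPM at 30 DAP, which overlapped, and 0 of 20 were called at a median of -0.72. All 5 miR395 vectors, which form 1 profile, were lower at 30 DAP without overlap, against 19.9% of all vectors tested. The levels of cme-miR395a were 21.3 and 41.1 CPM at 10 DAP against 13.96 and 5.198 CPM at 30 DAP. The 6 entries that are fragments of other RNA summed to 85808 and 42077 CPM at 10 DAP and to 56501 and 4519 CPM at 30 DAP, and 0 of 6 were called at a median of -1.23. Replicate 2 at 30 DAP thus stood far below the other 3 libraries. The main one, nta-miR2911, a name given to a fragment of ribosomal RNA, had 62584 and 31945 CPM at 10 DAP and 28521 and 2378 CPM at 30 DAP, with a log2 fold change of -1.61 and SE 1.36. In a fit on the PI296341FR libraries alone, nta-miR2911 was called lower at 30 DAP, with a log2 fold change of -2.03 and an edgeR adjusted p of 0.0105. Both sums overlapped between the ages, but nta-miR2911 itself did not. Of the 6 fragment entries, 3 were lower at 30 DAP without overlap, against 19.9% of all vectors tested. The part of these RNAs in the miR164 values was not tested. Among the fragments, gma-miR6300 had 5008 and 2960 CPM at 10 DAP and 10873 and 126 CPM at 30 DAP, so the libraries at 30 DAP lay on either side of those at 10 DAP.

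The step from 10 to 30 DAP in PI296341FR was set against the same step in 97103 of the genotype set. The interaction of genotype and age was called for 8 vectors, all higher in PI296341FR (1.87% of those tested; 0% lower), 6 of miR408 and 2 of miR167. The 2 miR167 vectors are near copies of each other, and over all 39 miR167 vectors the median interaction was -0.50. With counts summed over the family, miR167 had an interaction of -0.465 with SE 1.69. At an unadjusted p under 0.05 there were 43 vectors. For cme-miR167e the levels in PI296341FR were 17.3 and 10.3 CPM at 10 DAP and 161 and 1.58 CPM at 30 DAP, which overlapped. In 97103 they were 3.58 and 13.8 CPM at 10 DAP and 0.288 and 0.161 CPM at 30 DAP, which did not. The interaction was 7.68 on the log2 scale with SE 1.88, a 95% interval of 4.004 to 11.36 and an edgeR adjusted p of 0.0121. The levels of 97103 at 30 DAP rested on 7 counts in both libraries, against 106 at 10 DAP. Within 97103 the log2 fold change of cme-miR167e was -5.14 (edgeR adjusted p 0.00849), and within PI296341FR it was 2.54 (edgeR adjusted p 0.477).

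For cme-miR408 the levels in 97103 were 5.79 and 16.3 CPM at 10 DAP and 0.576 and 0.805 CPM at 30 DAP, beside the PI296341FR values given above. The interaction was 6.12 with SE 1.82 and an edgeR adjusted p of 0.0481, within PI296341FR 2.15 and within 97103 -3.97. In 97103 the levels of cme-miR408 at 30 DAP rested on 20 counts in both libraries, against 131 at 10 DAP. All 6 miR408 vectors had an interaction of 6.12 to 6.32. Within 97103, 4 of the 6 were called lower with age, and within PI296341FR 0 of 6 were called. The high value in PI296341FR at 30 DAP came from replicate 1. Without it, and without either library of PI296341FR at 10 DAP, replicate 2 of 97103 at 10 DAP or replicate 2 of 97103 at 30 DAP, 0 interactions were called. Without replicate 2 of PI296341FR at 30 DAP the 2 miR167 vectors were called and no miR408 vector. Without replicate 1 of 97103 at 30 DAP there were 5 calls, 2 of miR167 and 3 of miR396. Without replicate 1 of 97103 at 10 DAP there were 14, the 6 of miR408 and 2 of miR167 among 9 that were higher in PI296341FR, and 5 of miR166 that were lower. The miR408 calls also ended, and those of miR167 did not, with RLE factors, with no filter, with a stricter filter and with all listed names. With 1 name per profile the 2 miR167 names were called and the miR408 names were not, with an adjusted p of 0.0557.

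**Figure D4:**
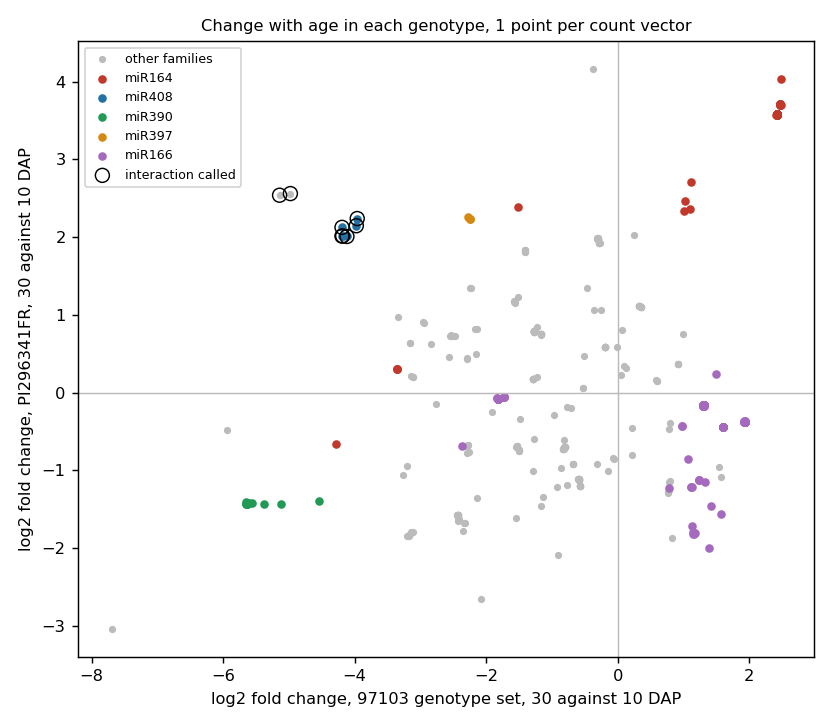
Log2 fold change from 10 to 30 DAP in 97103 of the genotype set (x axis) against that in PI296341FR (y axis), 1 point per count vector, coloured by family; circles mark the 8 vectors whose interaction of genotype and age passed an adjusted p under 0.05. The circled miR408 and miR167 vectors are above 0 in PI296341FR and below 0 in 97103, and the large miR164 cluster is above 0 in both.

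No interaction was called for the miR164 vectors that were called in PI296341FR. In 97103 of the genotype set cme-miR164d had 157 and 161 CPM at 10 DAP and 765 and 1011 CPM at 30 DAP, a log2 fold change of 2.48 with SE 1.01 and an edgeR adjusted p of 0.0972. Its interaction was 1.22 with SE 1.36, a 95% interval of -1.44 to 3.89 and an edgeR adjusted p of 0.62. That interval holds no difference as well as a difference of several log2 units. For bdi-miR164c, not called in PI296341FR, the log2 fold change in 97103 was -3.35, and its interaction of 3.65 with SE 1.70 did not pass the edgeR test (adjusted p 0.351). The low vector cme-miR164b fell in 97103, with a log2 fold change of -4.28 and an edgeR adjusted p of 0.0189, while its interaction did not pass (adjusted p 0.391). In 97103, 5.62% of vectors were called lower with age and 0% higher, among them all 12 miR390 vectors. For cme-miR390b the levels there were 111 and 10.4 CPM at 10 DAP and 4.03 and 1.13 CPM at 30 DAP, and the interaction of 3.14 with SE 1.68 did not pass the test.

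The stage set gave an additional view of 97103 at the same ages, from 3 libraries each and in a fit of its own, since its tables list other names. It shares 18 names with the genotype set, 16 of them tested in both. In the stage set 9 of the 16 were called higher at 30 DAP and 1 lower, where 21.1% of its 204 names were called higher and 23% lower. In PI296341FR 1 of the 16 was called, cme-miR164c. That name had 1142 ± 422 CPM at 10 DAP and 16539 ± 4548 CPM at 30 DAP in the stage set (SD, n = 3 libraries), a log2 fold change of 3.86 with SE 0.32, next to 3.57 with SE 1.05 in PI296341FR. For cme-miR319c the stage set value was 1.99 with SE 0.28 and that of PI296341FR 0.59 with SE 1.29. Its mean levels at 10 and 30 DAP were 24398 and 96938 CPM in the stage set, but 3.18 and 4.59 CPM in PI296341FR. For cme-miR162 the log2 fold changes were -0.64 with SE 0.23 in the stage set and 1.83 with SE 1.24 in PI296341FR. For cme-miR2111a they were 1.04 with SE 0.32 and -0.70 with SE 1.15. In 97103 of the genotype set they were -0.0046 for cme-miR319c, -1.40 for cme-miR162 and -0.81 for cme-miR2111a. All miR319 vectors there summed to 19.3 and 51.3 CPM at 10 DAP and 4.38 and 15.7 CPM at 30 DAP. The gap in miR319 level thus lay between the sets also within 97103. Of the 16 names, 13 were above 0 in the stage set, 2 in 97103 of the genotype set and 10 in PI296341FR. Values are set side by side only, since the sets were scaled apart and differences between them were not tested.

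**Figure D5:**
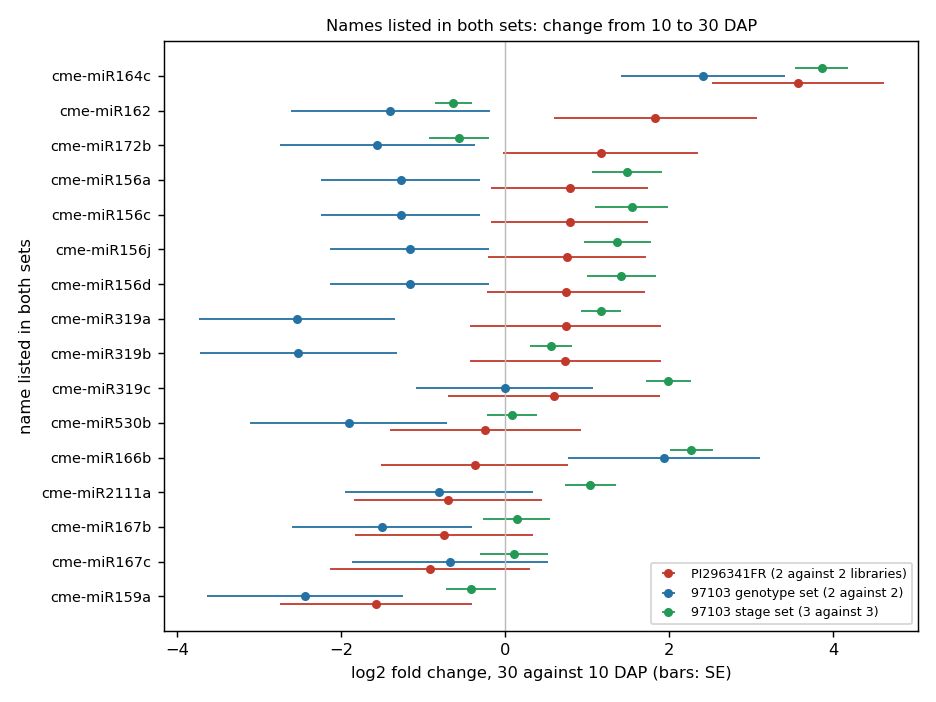
Log2 fold change from 10 to 30 DAP (x axis; bars are SE) for the names listed in both sets (y axis), in PI296341FR, in 97103 of the genotype set and in 97103 of the stage set. For cme-miR164c all 3 values are above 0, at 3.57, 2.42 and 3.86, and the bars of PI296341FR are wider than those of the stage set.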

How the data were processed

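Flesh RNA below 100 nt was gel-purified and sequenced on an Illumina instrument, per the labels' protocols. The deposited tables hold whole-number counts per miRNA name, not normalized by the authors as far as the values show. The tools fastp and BWA appear in the submitters' processing notes, with neither role nor version. How reads matching several names were counted, the genome build and the miRNA reference: not given in the sources used here.

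Groups came from the labels. Of each distinct count vector within a family 1 name was kept. Counts of all 8 libraries of the genotype set were fitted together in edgeR 4.0.16 (R 4.3.3; limma 3.58.1) with TMM factors, filterByExpr at a minimum count of 10 (1 vector dropped) and quasi-likelihood F tests on group means; DESeq2 1.42.0 was an alternative. The common dispersion over the 4 groups was 0.464. In this fit the prior degrees of freedom were infinite. The F tests thus used a spread pooled over vectors, and a vector's own gap between replicates had no weight of its own. Adjusted p-values under 0.05 were called. An exact permutation test of 2 against 2 libraries cannot give a two-sided p below 0.333, so none is reported. Scripts were tested on simulated data.

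The members and family lists were chosen with earlier results of these data known. Named vectors are the largest called change of each family without overlap between ages, filled to 5 families a direction by p, the most abundant vector of each listed family, the 5 most abundant at each age, and called interactions; novel_mir_105 and the further miR164 vectors were named after their values were seen, and shared names because both sets list them. Depth limits low names, and counting error covers none of the spread between libraries. Alternatives are in the closing section.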

Additional observations from a re-analysis of the deposited data

Results flagged for a closer look

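A test of the interaction itself, between PI296341FR and 97103 over the step from 10 to 30 DAP, called 8 vectors. On the log2 scale the interaction was 7.68 for cme-miR167e and 7.54 for aqc-miR167, near copies of each other, with an edgeR adjusted p of 0.0121 each. The median over all 39 miR167 vectors was -0.50. Among the miR408 vectors it was 6.32 for nta-miR408, 6.20 for smo-miR408, 6.12 for cme-miR408, 6.20 for ahy-miR408-3p, 6.20 for cca-miR408 and 6.12 for gma-miR408c-3p, with an edgeR adjusted p of 0.0481 each; no miR408 vector was called in 7 of the 8 fits that left out 1 library, or with the replicate block. In all 8 vectors replicate 1 of PI296341FR at 30 DAP was the highest library and replicate 2 lay below both libraries at 10 DAP.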

How the results depend on the processing

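The count of 33 vectors called at 30 against 10 DAP in PI296341FR was 144 with all listed names, 0 with 1 name per profile and 0 with family sums, and 0 to 33 with 1 library left out. The fit on the PI296341FR libraries alone gave 35 calls, 33 miR164 vectors and novel_mir_105 higher and nta-miR2911 lower. For cme-miR164d the log2 fold change stayed above 0 under every alternative run, at 2.48 to 4.07, with adjusted p from 0.000632 to 0.61. Relative to the median of all vectors, which was -0.17 with TMM, -0.32 with RLE factors and -0.25 unscaled, the miR164 median was 3.75, 3.60 and 3.60.

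The 8 interactions became 2 with RLE factors, with no filter, with a stricter filter, with all listed names, with 1 name per profile and with the replicate block, and in each case these 2 were miR167, so that all 6 miR408 calls were lost. They became 0 with family sums and were 0 to 14 with 1 library left out. The 24 calls in 97103 of the genotype set were 55 with RLE factors, 83 unscaled, 47 with a stricter filter, 66 with DESeq2, 243 with all listed names, 8 with 1 name per profile, 1 with family sums and 0 to 48 with 1 library left out. With RLE factors, the stricter filter or DESeq2, most miR164 vectors were called higher there too (32, 31 and 32). The 90 calls of the stage set were 171 unscaled and 73 to 88 with 1 library left out. The cause of these moves was not tested.

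Replicate numbers are shared between groups, and the labels do not say whether equal numbers mark a pair or a batch. Deviations of equal numbers correlated at 0.287 in PI296341FR and 0.549 in 97103. Whether a pair or batch is shared was not tested. With the replicate block 32 vectors were called in PI296341FR, and novel_mir_105 was not, at 3.65 (adjusted p 0.235).

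Of 720 values of named vectors under alternatives, 657 kept direction and side of the threshold and 40 changed sign. With all listed names the sign changed for the 5 named miR168 vectors (-0.50 each), cme-miR319a (-0.030), cme-miR858 (-0.34), gma-miR396a-3p (-0.58) and gma-miR6300 (-1.23). On PI296341FR libraries alone it changed for aly-miR160a-3p (0.40; 0.26 with the stricter filter) and gma-miR6300 (-0.055; -1.62 with the replicate block). With 1 library left out, values ran from -1.92 to 1.08 for aly-miR160a-3p, -0.58 to 1.66 for aly-miR157c-5p, -2.43 to 0.032 for aly-miR165a-3p, -3.04 to 0.62 for cca-miR156b, -0.10 to 1.70 for ghr-miR156d, -0.49 to 0.99 for the miR168 vectors, -3.46 to 0.49 for cme-miR169d, -0.27 to 0.88 for gma-miR396a-3p, -4.43 to 1.13 for gma-miR6300, -0.46 to 0.038 for mdm-miR166c, -2.53 to 3.27 for aqc-miR167, -2.53 to 3.24 for cme-miR167e and -1.76 to 6.01 for novel_mir_105. For miR408 they ran from -0.58 to 2.61 (ahy-miR408-3p), -0.56 to 2.61 (cca-miR408), -0.49 to 2.75 (cme-miR408), -0.58 to 2.61 (gma-miR408c-3p), -0.48 to 2.73 (nta-miR408) and -0.41 to 2.84 (smo-miR408). The shallowest library, replicate 1 at 30 DAP, had 453991 counts, and names with few counts there are the least precise.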
